A study of Mus musculus with 23 samples.

Results

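Inversion 4 (Inv4) is 1 of the engineered rearrangements of mouse chromosome 1 in this study, and its comparison with wild type distal forelimb is described here. The members are all 72 genes of the authors' deposited table of that comparison, out of 34682 genes in the tables of the series as a whole. The groups are 5 wild type libraries and 3 Inv4 libraries, 8 of the 23 libraries of the series, each made from polyA RNA of the distal forelimb of E11.5 mouse embryos. Per the series' design text the libraries of a group are biological replicates, the inversions were made with CRISPR/Cas9, and the study asked what happens when an enhancer cluster from the Epha4 domain is moved into a gene-dense region. The labels give the genotype of the Inv4 embryos only as mutant. They name neither the breakpoints, nor whether 1 or both copies of the chromosome carry the inversion, nor whether embryos were pooled. They list the embryonic stem cell line G4 as the cell type of every library.

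Enhancers are stretches of DNA that raise transcription of genes on the same chromosome, and their reach is usually limited to a topological domain. The Epha4 domain holds limb enhancers and has only few genes, among them Epha4, a receptor for ephrins that guides cell contacts. Next to it lies a stretch with many genes, including Ihh, the Indian hedgehog ligand of cartilage growth, the ligand genes Wnt6 and Wnt10a, and genes used in muscle or neurons. At this stage the distal limb bud is mostly undifferentiated mesenchyme under a thin ectoderm, with muscle precursors marked by the transcription factor Pax3.

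In Inv4 the neighbours Prkag3 and Cyp27a1 rose, together with Ihh a few genes away, while Wnt6, which lies directly beside Prkag3, did not pass the test. The promoters of these 4 genes are shown because 3 of the genes rose and Wnt6 was not called. Each is the RefSeq window of GRCm38.p6, 250 bases before to 50 bases after the start site, printed in the gene's own direction. Capitals mark matches to CCAAT or GGGCGG on either strand, so that ATTGG and CCGCCC are the same motifs read on the other strand.
Cyp27a1: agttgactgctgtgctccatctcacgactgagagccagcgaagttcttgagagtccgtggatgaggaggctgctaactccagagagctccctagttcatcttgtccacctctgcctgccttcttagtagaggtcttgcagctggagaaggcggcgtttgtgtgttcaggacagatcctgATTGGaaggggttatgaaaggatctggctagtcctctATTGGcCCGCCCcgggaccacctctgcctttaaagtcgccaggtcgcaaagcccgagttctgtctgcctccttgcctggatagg
Prkag3: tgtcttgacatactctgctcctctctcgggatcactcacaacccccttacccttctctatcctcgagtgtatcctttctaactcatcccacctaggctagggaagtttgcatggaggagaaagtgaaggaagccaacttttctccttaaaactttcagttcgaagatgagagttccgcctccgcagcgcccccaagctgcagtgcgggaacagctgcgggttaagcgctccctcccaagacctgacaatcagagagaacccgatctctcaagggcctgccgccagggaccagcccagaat
Wnt6: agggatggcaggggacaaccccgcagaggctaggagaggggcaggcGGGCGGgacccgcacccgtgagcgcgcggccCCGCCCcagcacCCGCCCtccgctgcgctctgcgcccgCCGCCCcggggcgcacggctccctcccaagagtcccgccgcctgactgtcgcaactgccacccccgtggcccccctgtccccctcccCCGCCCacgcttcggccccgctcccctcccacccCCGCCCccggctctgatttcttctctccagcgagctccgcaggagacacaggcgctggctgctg
Ihh: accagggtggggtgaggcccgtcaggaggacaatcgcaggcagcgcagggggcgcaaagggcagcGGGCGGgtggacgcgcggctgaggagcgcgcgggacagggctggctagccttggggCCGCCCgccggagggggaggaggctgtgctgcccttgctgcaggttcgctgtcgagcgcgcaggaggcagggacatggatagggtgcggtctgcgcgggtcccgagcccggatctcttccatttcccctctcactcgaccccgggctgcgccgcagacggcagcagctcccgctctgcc
The windows are chr1:74713285-74713584 on the plus strand for Cyp27a1, chr1:74748906-74749205 on the minus strand for Prkag3, chr1:74771642-74771941 on the plus strand for Wnt6 and chr1:74951623-74951922 on the minus strand for Ihh. The window of Prkag3 held neither motif. That of Cyp27a1 held 2 matches to CCAAT and 1 to GGGCGG, Ihh held 2 of GGGCGG and Wnt6 held 6. Of all 32851 RefSeq windows of that length, 37.4% held CCAAT and 35.7% held GGGCGG. The TATA box letters TATAAA, found in 13.6% of windows, were in none of the 4. GC content was 55.3% for Cyp27a1 and 54.0% for Prkag3, near the median of 52.7% over all windows, and 76.7% for Wnt6 and 72.7% for Ihh. Of the motifs searched, none was in the windows of all 3 genes that rose, and a match here describes letters only.

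The table holds no value per library. It gives, for each gene, a mean normalised count over the 18 libraries of the authors' joint fit of wild type and the 4 inversions, and a log2 change with a standard error (SE). The log2 changes were read as Inv4 minus wild type. A level in each group was rebuilt from the mean and the log2 changes of the 4 inversions, and is called the rebuilt level below. Rebuilt levels carry no spread of their own and compare groups for 1 gene, not genes with each other, since they are not per length. A gene was called when the authors' DESeq2 Wald test gave an adjusted p under 0.05. By that rule 10 of the 72 genes rose, which is 13.9%, and 5 fell, which is 6.94%, together 20.8%. Among all genes the authors tested for Inv4, listed or not, the share called lay between 19.8% and 23.4%, as worked out from the ranks of the p-values, and the share among the 72 lies within these limits.

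**Figure D1:**
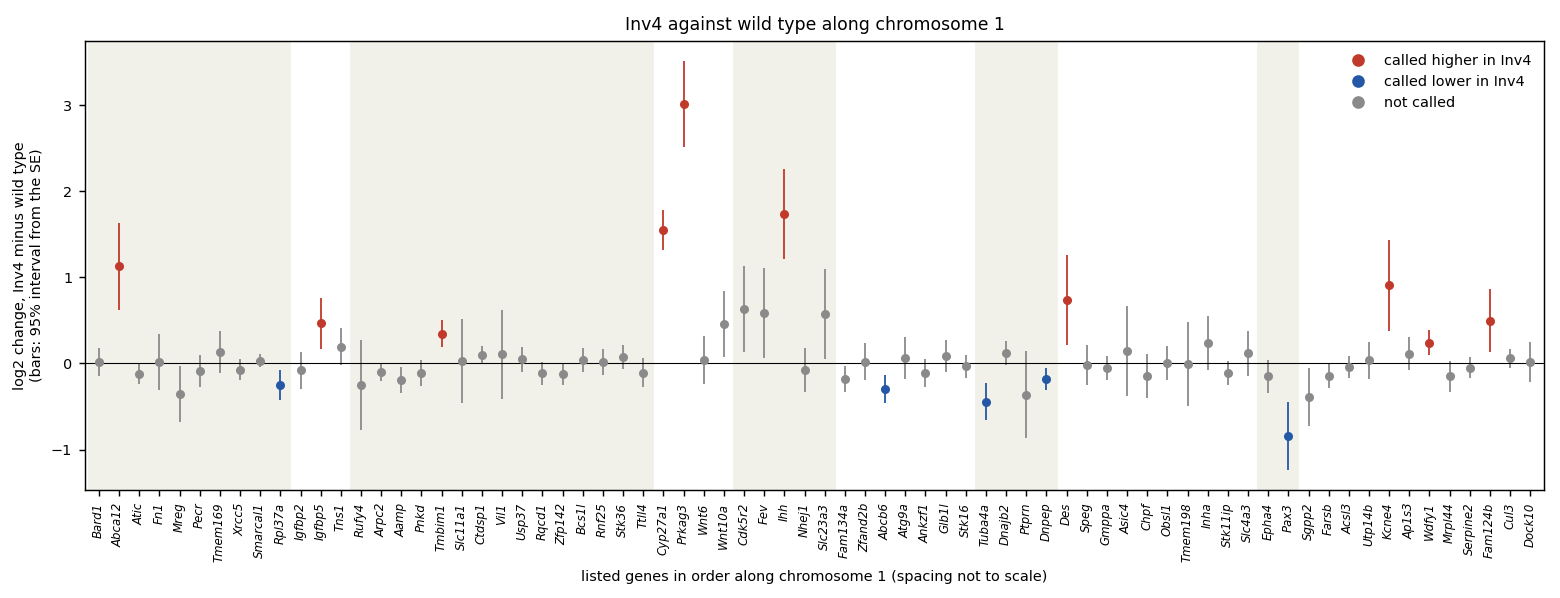
Log2 change in Inv4 minus wild type (vertical axis, bars show the 95% interval from the SE) for the 72 listed genes in their order along chromosome 1 (horizontal axis, not to scale), with shading for the stretches described in the text. Prkag3 (3.01), Ihh (1.74) and Cyp27a1 (1.55) stand highest, and Pax3 (-0.84) is lowest.

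Prkag3, a regulatory subunit of AMP-activated protein kinase known from skeletal muscle, had the largest change. Its rebuilt level was 11.7 normalised counts in wild type and 94.7 in Inv4. In the authors' deposited table this was a log2 change of 3.01 with an SE of 0.253 and an adjusted p of 3.57e-29, with a 95% interval of 5.73-fold to 11.4-fold. Cyp27a1, a mitochondrial sterol hydroxylase of bile acid synthesis, went from a rebuilt level of 446 to 1302. The authors' deposited table gave it a log2 change of 1.55 with an SE of 0.119 and an adjusted p of 6.45e-35. The 2 genes are neighbours on opposite strands with their 3′ ends facing each other, and the sources used here do not state whether reads were counted by strand.

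Ihh went from a rebuilt level of 27.6 in wild type to 92.1 in Inv4, with a log2 change of 1.74, an SE of 0.267 and an adjusted p of 4.77e-08 in the authors' deposited table. The genes between Prkag3 and Ihh did not pass the test. Wnt6, which encodes a ligand made in limb ectoderm, was at a rebuilt level of 1142 in wild type and 1176 in Inv4. The 95% interval of its fold, from the authors' deposited table, was 0.849 to 1.25. A change of 0.38 on the log2 scale would have been called at its SE. For Wnt10a, a related ligand gene, the rebuilt levels were 43.1 and 59.2, with a log2 change of 0.46, an SE of 0.193 and an adjusted p of 0.0688 in the authors' deposited table. Cdk5r2, an activator of the neuronal kinase Cdk5, had 0.63 with an SE of 0.256 and an adjusted p of 0.0564 there on the same scale. Fev, an ETS transcription factor gene of serotonergic neurons, had 0.59 with an SE of 0.267 and an adjusted p of 0.0935 in the authors' deposited table, from a rebuilt level of only 5.92 in wild type.

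Wnt10a, Cdk5r2 and Fev have low counts in these limbs, and the intervals of all 3 lay above a fold of 1. They ran from 1.06 to 1.79, from 1.10 to 2.20 and from 1.05 to 2.16 in the authors' deposited table, before any correction for the number of genes. From Cyp27a1 to Ihh, 7 consecutive listed genes had a positive log2 change, the longest stretch of 1 sign. The next longest had 5 genes, from Tmbim1 to Usp37 with positive signs and from Epha4 to Acsl3 with negative signs. Within the stretch of 7, Wnt6 was at only 0.04 with an SE of 0.142 on the log2 scale. Of the 12 listed genes with means of 10 to 100, some of them in that stretch, 9 were positive.

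The listed neighbours on both sides of this stretch were not called. Ttll4, a tubulin-modifying enzyme gene and the listed neighbour of Cyp27a1, had a rebuilt level of 2958 in wild type and 2749 in Inv4. Its log2 change was -0.11 with an SE of 0.086 and an adjusted p of 0.386 in the authors' deposited table. Nhej1, a DNA end-joining gene beside Ihh, had one of -0.08 with an SE of 0.131 and an adjusted p of 0.705 there. Slc23a3, a transporter gene on the far side of Nhej1, had one of 0.57 with an SE of 0.265 and an adjusted p of 0.101 at a mean normalised count of only 9.40 in the authors' deposited table. Among the 4 genes from Cyp27a1 to Wnt10a the median log2 change was 1.003, and 0.59 among the 5 from Cdk5r2 to Slc23a3, against 0.02 over all 72. Several of these genes have low counts. Over the 12 listed genes with means of 10 to 100, which include some of them, the median was 0.48. Without Prkag3 and Cyp27a1 the first of these medians was 0.25, a value chosen after seeing the data. With mean counts of at least 100 the second was 0.26, from Nhej1 and Fev alone. Fev has a mean of 113 over the 18 libraries, with a log2 change of 6.76 in Inv3. Its rebuilt levels here were 5.92 in wild type and 8.91 in Inv4.

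**Figure D2:**
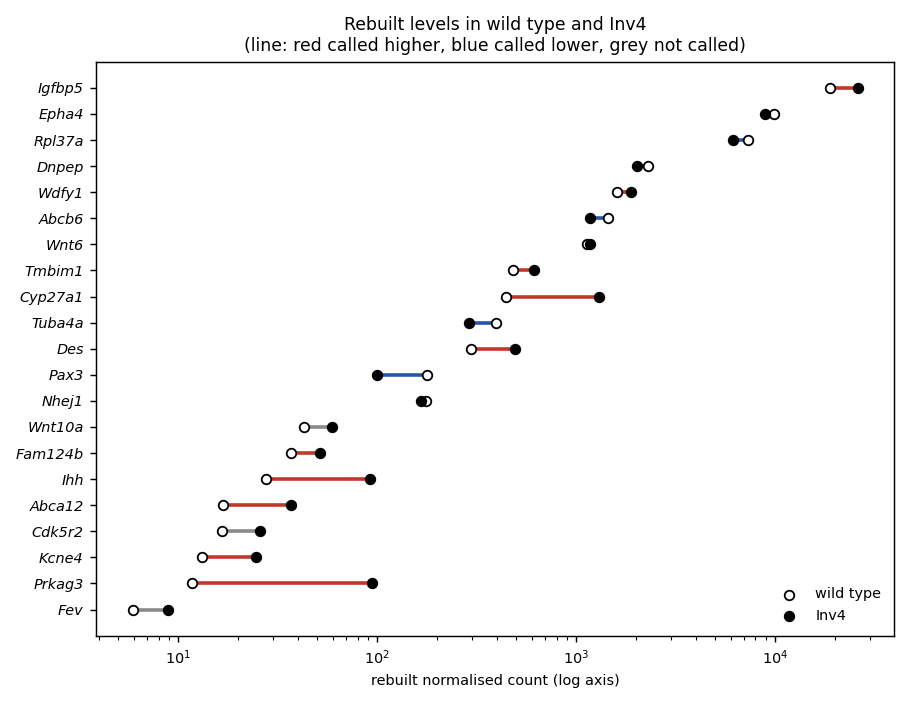
Rebuilt normalised counts (horizontal log axis) in wild type (open circles) and Inv4 (filled circles) for the 15 called genes and for Epha4, Wnt6, Wnt10a, Nhej1, Cdk5r2 and Fev, with no error since the table holds no library values. Prkag3 moves from 11.7 to 94.7 and Cyp27a1 from 446 to 1302, while the 2 circles of Wnt6 nearly coincide.

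From Abcb6 to Dnpep, on the far side of Nhej1, the 3 called genes fell, and Des beside them rose. Tuba4a, an alpha-tubulin gene, went from a rebuilt level of 395 to 291, a log2 change of -0.44 with an SE of 0.111 and an adjusted p of 0.00162 in the authors' deposited table. Abcb6, a transporter linked to heme synthesis, went from 1455 to 1184 (log2 change -0.30, SE 0.083, adjusted p of 0.00488 in the authors' deposited table). Dnpep, an aspartyl aminopeptidase gene, went from 2308 to 2037, and its fall of 0.18 on the log2 scale had an adjusted p of 0.0330 in the authors' deposited table. That call was lost (-0.16 against 0.17 needed) when the median change of the abundant genes was subtracted. Between Tuba4a and Dnpep, Dnajb2, a co-chaperone gene, had a log2 change of 0.12 (adjusted p of 0.203) and Ptprn, a dense-core vesicle gene, one of -0.37 with an SE of 0.257 and an adjusted p of 0.309 in the authors' deposited table. Their neighbour Resp18 is not among the 72 genes of this comparison. From Fam134a to Stk16, 1 of 7 genes was called, and from Tuba4a to Dnpep 2 of 4, of which Dnpep is 1. Among the 72, 20.8% were called.

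Des, the intermediate filament of muscle, rose next to Dnpep. Its rebuilt level was 299 in wild type and 497 in Inv4, with a log2 change of 0.73, an SE of 0.268 and an adjusted p of 0.0339 in the authors' deposited table. Among genes with a mean count of at least 100 this SE was the widest, hardly above that of Fev (0.267). The median SE from 100 to 1000 was 0.111. The other genes from Speg to Slc4a3 did not pass, and the median over the 10 genes from Des to Slc4a3 was 0.00 on the log2 scale. Speg and Obsl1, both proteins of the muscle sarcomere, were at -0.02 with an SE of 0.121 and at 0.00 with an SE of 0.102 on the log2 scale in the authors' deposited table.

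Epha4 itself did not pass the test. Its rebuilt level was 9902 in wild type and 8923 in Inv4, a log2 change of -0.15 with an SE of 0.098 and an adjusted p of 0.266. The 95% interval ran from 0.789 to 1.03 of the wild type level in the authors' deposited table. Pax3, on the other side of Epha4, fell from a rebuilt level of 179 to 100.2. Its log2 change was -0.84 with an SE of 0.20 and an adjusted p of 0.000871, an interval of 0.425 to 0.733 of wild type, in the authors' deposited table. Sgpp2, a sphingosine phosphatase gene next to Pax3, had a log2 change of -0.39 with an SE of 0.174 and an adjusted p of 0.0862 in the authors' deposited table.

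Farther out, 3 of 12 genes beyond Pax3 were called, all of them higher. That is 25%, near the 20.8% called among the 72. Kcne4, a potassium channel subunit, went from a rebuilt level of 13.1 to 24.6 (log2 change 0.91, SE 0.268, adjusted p of 0.00788 in the authors' deposited table). Fam124b went from 36.9 to 52.1 (adjusted p of 0.0408 in the authors' deposited table), and Wdfy1, an endosomal protein gene, from 1615 to 1904 (adjusted p of 0.0117 there). The listed neighbours of these 3, Utp14b, Ap1s3, Mrpl44, Serpine2 and Cul3, had log2 changes between -0.15 and 0.11 in the authors' deposited table, and none was called.

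At the centromeric end the called genes were scattered among neighbours that were not. Abca12, a lipid transporter of the skin surface, rose from a rebuilt level of 16.9 to 36.9 (log2 change 1.13, SE 0.259, adjusted p of 0.000528 in the authors' deposited table). Its neighbours Bard1 and Atic had log2 changes of 0.02 and -0.12 there, and neither was called. Rpl37a, a ribosomal protein gene, fell by 0.25 on the log2 scale with an SE of 0.088 and an adjusted p of 0.0261 in the authors' deposited table. Ribosomal protein genes have near-identical processed copies, so its count is uncertain. Igfbp5, which binds insulin-like growth factors, rose from a rebuilt level of 19009.7 to 26254. Its log2 change was 0.47 with an SE of 0.150 and an adjusted p of 0.0156, and that of the adjacent Igfbp2 was -0.08 with an SE of 0.111 and an adjusted p of 0.649 in the authors' deposited table. Tmbim1, a membrane protein gene, rose by 0.34 with an SE of 0.081 and an adjusted p of 0.000719 in the authors' deposited table. It was the 1 called gene of 15 from Rufy4 to Ttll4, which is 6.67%, against 20.8% among the 72. Tmbim1 lies within Pnkd on the opposite strand, and Pnkd had a log2 change of -0.11 (adjusted p of 0.319) in the authors' deposited table. Wdfy1 overlaps Mrpl44 and Tuba4a overlaps Stk16 in the GRCm38 annotation, so that reads of these pairs could be shared.

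The SE of a gene was mostly wider at a lower mean count, with exceptions. Fn1 and Igfbp5, the most abundant genes, had an SE of 0.165 and 0.150, against a median of 0.076 with means of 1000 and over. Des and Fev, with means of 406 and 113, had an SE of 0.27. The mean covers all 18 libraries, and Fev had rebuilt levels under 10 in wild type and Inv4. Ptprn, with a mean of 81.2, had rebuilt levels of 26.5 in wild type and 20.5 in Inv4. A mean count is thus not a level in these groups. Mean counts ran from 7.66 (Vil1) to 25891 (Fn1), and SE values from 0.040 (Smarcal1) to 0.268 (Kcne4) in the authors' deposited table. None of the 3 genes with a mean under 10 was called in the authors' DESeq2 Wald test, and 1 of them had an unadjusted p under 0.05. From 10 to 100, 5 of 12 genes were called, all of them higher, namely Prkag3, Ihh, Abca12, Kcne4 and Fam124b. Between 100 and 1000, 3 of 23 rose and 2 fell. With a mean of 1000 and over, 2 of 34 rose and 3 fell. The share called was 41.7%, 21.7% and 14.7% in these 3 classes. The change needed for a call, taken as 2.65 times the SE after the called gene nearest the threshold, had a median of 0.67 on the log2 scale from 10 to 100, 0.29 from 100 to 1000, and 0.20 with 1000 and over. The fall of Dnpep, 0.18 on the log2 scale, is smaller than each of these medians, and a change of that size was not detectable in Fev, where 0.71 was needed.

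**Figure D3:**
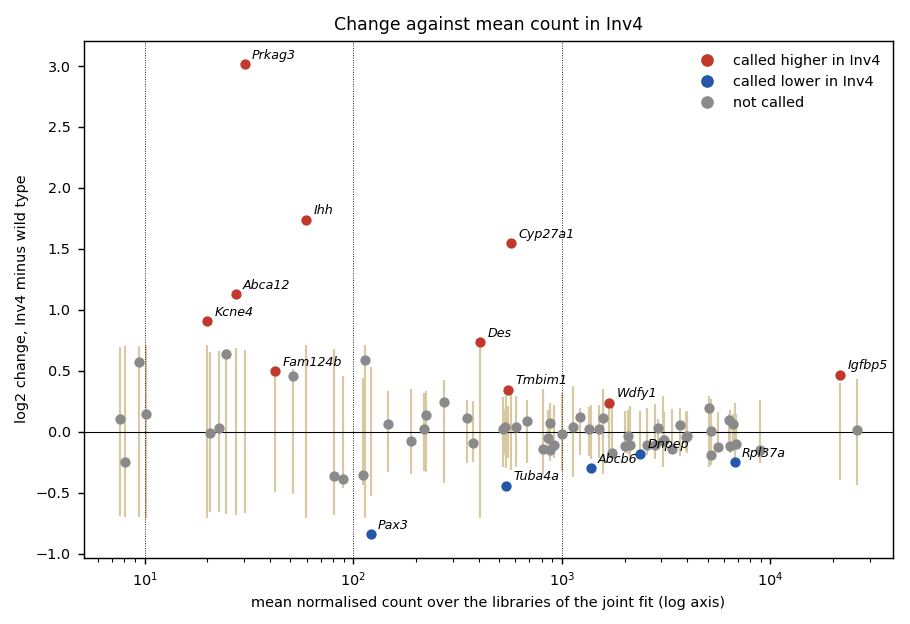
Log2 change in Inv4 minus wild type against the mean normalised count (horizontal log axis) for the 72 genes, with vertical tan bars for the range within which a gene would not have been called at its own SE and dotted lines at 10, 100 and 1000. The 5 called genes with a mean under 100 all lie above 0, and the called genes over 1000 lie between -0.30 and 0.47.

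Just inside the threshold were Dnpep, Des and Fam124b, with adjusted p values of 0.0330, 0.0339 and 0.0408 in the authors' deposited table. Just outside it were Cdk5r2 (0.0564), Aamp (0.0570) and Wnt10a (0.0688) in the same table. Aamp, an abundant gene of cell migration, had a log2 change of -0.19 with an SE of 0.077 in the authors' deposited table.

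The table lists few genes, but its p-values hold the place of each in the whole genome. Under the Benjamini-Hochberg adjustment that DESeq2 uses, the ratio of a p-value to its adjusted p is the rank of the gene divided by the number of genes tested. A number of 16642 tested genes turned 48 of the 72 ratios into whole ranks, within 0.01, and the next best number, 24963, only 26. For the other genes the rank is an upper limit. By this reading Cyp27a1 had the 4th and Prkag3 the 5th smallest p of the 16642, so that 3 genes outside the list came before them. Ihh had rank 28, Tmbim1 rank 469, Pax3 rank 524 and Abcb6 rank 1204, while Abca12 stood at rank 407 or before and Tuba4a at 696 or before. Fam124b, the last listed gene called, had rank 3298, and Cdk5r2, the first not called, rank 3895. Between 3298 and 3894 of the genes tested were therefore called, 19.8% to 23.4%.

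Of the listed genes, more than an even spread would give stood at the very first ranks, and about as many as it would give further down. An even spread would place 0.72 of 72 genes in the first 1% of ranks, and 3 were there, Cyp27a1, Prkag3 and Ihh. The first 5% held 7 where an even spread gives 3.60, the first 10% held 9 against 7.20, the first 25% held 17 against 18, and the first 50% held 35 against 36. These counts are a description, and no test was made of them.

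**Figure D4:**
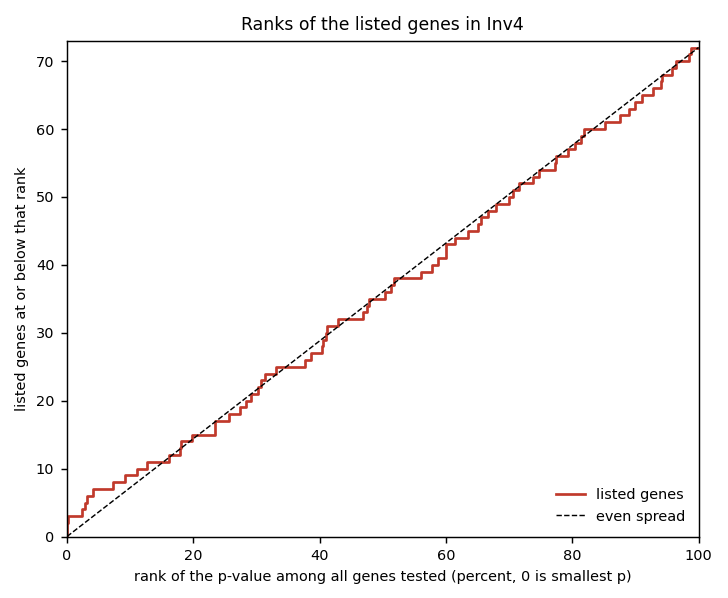
Number of listed genes (vertical axis) at or below each rank of the p-value among the 16642 genes tested, in percent (horizontal axis), with a dashed line for an even spread. The line lies above the dashed one at the left end, with 7 genes in the first 5%, and meets it from about 25% onward (17 genes against 18).

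By role, the called genes were not of 1 kind. Of the secreted signals and binding proteins, 8 of 9 were listed and 2 rose, Ihh and Igfbp5. Of 4 muscle proteins 2 rose, Prkag3 and Des. Among 7 transporters and channels, Abca12 and Kcne4 rose and Abcb6 fell. In lipid and sterol metabolism 5 of 7 genes were listed and 2 rose, Cyp27a1 and Abca12. Of 5 cytoskeleton genes only Tuba4a was called, and of 3 transcription factor genes only Pax3, both lower. The 3 translation genes had log2 changes from -0.25 to -0.15 in the authors' deposited table, and only Rpl37a passed. None of 4 listed neural genes was called in the authors' DESeq2 Wald test, with 2 at an unadjusted p under 0.05, and none of 4 DNA repair genes was called, with 0 at that p. These counts stand beside 13.9% higher and 6.94% lower among the 72 genes.

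Markers of several cell types are among the listed genes. The summed rebuilt level of 5 muscle lineage genes (Pax3, Des, Speg, Obsl1 and Prkag3) was 6416 in wild type and 6615 in Inv4. Obsl1 alone holds 4934 and 4944 of these, so the sums mostly follow that gene. Within that list Prkag3 and Des rose and Pax3 fell. The sum of 3 surface ectoderm genes (Wnt6, Wnt10a and Abca12) was 1202 and 1272, of which Wnt6 holds 1142 and 1176. Abca12 of that list rose, and the log2 changes of all 3 were positive with a median of 0.46. That of the 5 listed of 7 neural or neuroendocrine genes was 1063 and 1161, nearly all of it the co-chaperone gene Dnajb2. The 4 neural genes without Dnajb2 summed to 57.8 and 65.0, and Resp18 and Scg2 are not listed. The sum of 2 of 4 immune genes was 246 and 249, with Cxcr1 and Cxcr2 not listed. Vil1 of gut epithelium was at 6.59 and 7.08, and the germ cell gene Tnp1 is not among the 72. Of the limb mesenchyme list Epha4, Fn1, Serpine2 and Igfbp5 were all listed and abundant, with a sum of 58826 and 65246. The gain of Igfbp5 alone, 7244, is larger than the difference of these sums. The part of these cell types in the changes was not tested, and in whole tissue fewer cells of a type and less RNA per cell cannot be told apart.

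Set against Inv2 and Inv3, few of the listed genes passed a test of difference from Inv4. All 3 comparisons use the same wild type libraries, which makes this test conservative. The difference of log2 changes was tested with a normal p adjusted by the Benjamini-Hochberg method over the 72 genes. Before adjustment, 5 genes had a p under 0.05 in this test against Inv2 and 7 against Inv3. A difference that did not pass is not shown to be absent. Against Inv2, 3 of 72 genes differed, which is 4.17%. Prkag3 was higher in Inv4 by 2.36 with an SE of 0.360 and an adjusted p of 2.26e-09 and Cyp27a1 by 1.79 with an SE of 0.165 on the log2 scale, computed from the authors' deposited table. Tuba4a was lower in Inv4 than in Inv2, with a difference of -0.62, an SE of 0.148 and an adjusted p of 0.000587, the 2 values against wild type being -0.44 and 0.18 in the authors' deposited table. Against Inv3, again 3 of 72 genes differed (4.17%), Cyp27a1 and Prkag3 being higher in Inv4 and Fev lower. Prkag3 also rose in Inv3 against wild type (log2 change 1.28, adjusted p of 2.18e-05 in the authors' DESeq2 Wald test). Ihh rose in Inv2 (1.37, adjusted p of 0.000185) and in Inv3 (1.77, adjusted p of 6.46e-09) by the same test. Of the genes called in Inv4, all but Rpl37a, Cyp27a1, Wdfy1 and Fam124b were also called in Inv3, in the same direction. In Inv2 only Ihh and Pax3 of them were called. The number of calls differed too: in Inv2 Slc23a3 was the only other gene of the 72 called, while Inv3 had many calls that Inv4 did not. The wild type libraries are shared as well, so these overlaps do not measure how alike the inversions are. The differences of Ihh did not pass. Those differences were 0.37 (95% interval -0.37 to 1.11) from Inv2 and -0.03 (-0.77 to 0.71) from Inv3, which leaves room for differences of more than 0.7 on the log2 scale. For Pax3 the difference from Inv3 was 0.58 (0.03 to 1.14, adjusted p of 0.481) and that from Inv2 was 0.05 (-0.49 to 0.59), from the authors' deposited table. For Epha4 neither difference passed, at 0.07 (-0.20 to 0.33) from Inv2 and -0.08 (-0.35 to 0.20) from Inv3, computed from the same source.

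**Figure D5:**
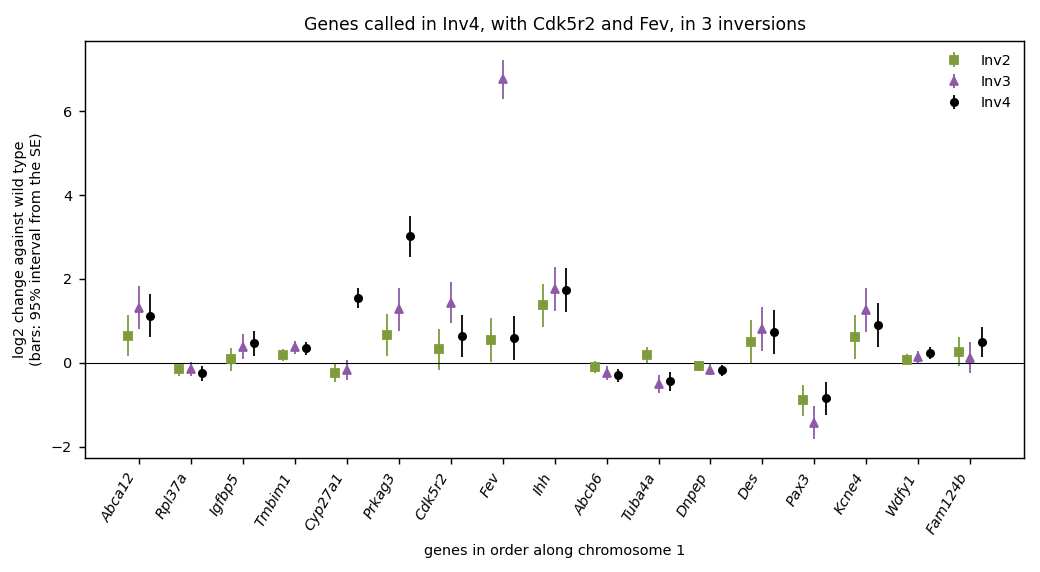
Log2 change against wild type (vertical axis, bars show the 95% interval from the SE) of the 15 genes called in Inv4, with Cdk5r2 and Fev, in Inv2, Inv3 and Inv4, which share the wild type libraries. Prkag3 at 3.01 and Cyp27a1 at 1.55 are highest in Inv4, while Fev is at 6.76 in Inv3 and 0.59 in Inv4.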

How the data were processed

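RNA-seq of distal forelimbs was compared between 5 wild type and 3 Inv4 libraries. Per the submitters' processing notes, the authors used STAR, DESeq2 and the mouse build mm9, with no version given. Per the file headers, the deposited table gives a mean normalised count (a signal pooled over libraries), a log2 fold change and its SE on the log2 scale, a Wald score, a p-value and an adjusted p-value. Library totals, and so the depth of each library, are unknown, and no model could be refitted.

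The 4 tables against wild type give the same mean for a gene, so they come from 1 fit of 18 libraries. The 7 genes listed for another inversion but not for Inv4 had means of at most 4.81. The header names no numerator. For 49 genes whose mean was 300 or more, the group means were rebuilt and set beside the separate table of Inv1DelCTCF and Inv1. The residual had a median absolute size of 0.0124 (log2) under the best sign convention, and 0.107 or more under the other 3. That convention read positive values as higher in the inversion than in wild type. In the separate table it read them as higher in Inv1 than in Inv1DelCTCF. The group named second is thus the numerator against wild type, and the group named first in the separate table. SE values of at most 0.268, even for low genes, occur in fits that shrink fold changes. The SE values and the log2 changes of low genes, Prkag3 and Ihh among them, may therefore be understated. Their intervals and rebuilt levels are approximate.

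A gene was called at an adjusted p under 0.05, from the authors' DESeq2 Wald test adjusted over all genes they tested. Gene order and overlap came from GENCODE M21 on GRCm38, in which all 79 genes of the 4 tables matched, and promoters were matched by symbol for 67 of 72 genes. Other coordinates are not given, since the build differs. Differences between inversions used the summed squared SE, which the shared wild type libraries make conservative. Intervals are 1.96 SE to each side.

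Named genes were every called gene, 15 genes whatever their p, the 3 nearest the threshold on each side, the 5 largest changes not called, the 3 highest and 3 lowest means, the neighbours of called genes and the gene with the largest SE. Scg2, Cxcr1, Cxcr2, Tnp1, Obsl1, Usp37, Acsl3, Fam134a and Slc4a3 stand outside that rule, as members of lists or ends of the stretches described. The genes, lists and tests were chosen with earlier results of these data known. Utp14b was added to its stretch after the table was seen. The recovery of the number tested, the difference test and the rebuilding were tested on simulated data. The tools were pandas 2.3.3 and SciPy 1.17.1 under Python 3.11.15, with numpy 2.4.6, and matplotlib 3.10.9 for the plots.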

Additional observations from a re-analysis of the deposited data

How the results depend on the processing

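The number of genes called depended on the rule. Of the 15 calls (10 higher, 5 lower), 9 were left at an adjusted p under 0.01 (6 higher, 3 lower), 7 with an absolute log2 change of at least 0.5 (6 higher, 1 lower) and 8 with an interval clear of 0.2 on the log2 scale (6 higher, 2 lower). An adjusted p under 0.1 gave 8 lower calls, and a mean count of at least 100 left 5 higher calls. Prkag3, Cyp27a1, Ihh, Pax3, Abca12 and Kcne4 were called under the first 3 of these rules, and Prkag3, Ihh, Abca12 and Kcne4 have means under 100. Of the medians along the chromosome, that of Cyp27a1 to Wnt10a was 0.79 with means of at least 100 and 0.25 without Prkag3 and Cyp27a1. That of Cdk5r2 to Slc23a3 was 0.26 with means of at least 100, from Nhej1 and Fev alone. Fev has that mean over the 18 libraries but rebuilt levels of 5.92 and 8.91 here. That of Tuba4a to Dnpep was -0.11 weighted by 1 over SE squared and -0.18 with means of at least 100. That of Epha4 and Pax3 was -0.28 when weighted. Subtracting the median of the abundant genes (-0.02) ended the call of Dnpep (-0.16) and that of none of the other 14. The direction of the log2 changes, the counts of genes that differ from Inv2 and Inv3 and the number of genes tested stayed the same or within 1.5 times under their alternatives. No paired analysis was possible because the tables hold no value per library, and for the same reason no library could be left out.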
